A study of Mus musculus with 5 samples.

Results

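C1q-high tumor macrophages were 1263 of the 19533 cells (6.47%) kept from 15 mammary tumors, out of 30340 cells in the matrices. They were chosen by measured values. A cell had to hold at least 2500 gene UMIs (unique molecular identifiers, which count captured mRNA molecules), a total no higher than the ceiling the study set, and a mitochondrial share of 20% or less. Members held 2500 to 23933 UMIs. It further had to hold at least 5 UMIs of C1qa, C1qb and C1qc together, at least 1 UMI of Csf1r, Ms4a7 and Mpeg1 together, no UMI of Cd3d, Cd3e or Cd3g, and at most 3 UMIs of Krt8 and Krt18. These 11 genes are therefore described here and not tested.

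The tumors came from FVB MMTV-PyMT mice, whose mammary epithelium makes the oncoprotein polyoma middle T from the promoter of a mammary tumor virus. The macrophages are those of the same mouse. From 7 weeks of age, mice received isotype IgG2a (clone C1.18.4; 6 tumors) or the anti-VEGF-A antibody B20-4.1.1 (9 tumors) at 5 mg/kg for 6 weeks. Dissociated viable cells were marked with CellPlex oligonucleotides, pooled as 3 tumors per library and profiled by 3′ droplet single-cell RNA sequencing. There were 2 isotype and 3 B20-4.1.1 pools, and no pool held both treatments, so pool and treatment cannot be told apart. Tumors are written I1a to I2c (isotype) and V1a to V3c (B20-4.1.1), the number being the pool.

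Macrophages are phagocytes that clear dying cells and debris, present antigen on MHC class II and release cytokines. C1q, made of the C1qa, C1qb and C1qc chains, is the recognition molecule that starts the classical complement pathway and also tags dying cells for uptake. Most plasma proteins of complement come from the liver, but C1q is made mainly by macrophages and related myeloid cells, and C1q with Apoe and Trem2 marks a macrophage state found in many solid tumors.

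Libraries and tumors differed in ways that touch the results. The members numbered 13 to 219 per tumor and held 124982 to 1552085 UMIs, with a median of 4886 to 9602.5 UMIs per cell across tumors. V1c, V2a and V2c held 13, 15 and 18 members and stayed out of the gene tests, which leaves V2b as the only tumor of its pool there. In the same 3 tumors 57.0%, 66.5% and 65.6% of the kept cells met a T-cell gate (at least 2 Cd3 UMIs), against 3.29% to 21.4% in the other 12. Isotype pool 1 stood apart. Its members had a median of 3.92% to 4.31% mitochondrial UMIs per tumor, against 1.49% to 2.56% in every other tumor. Of the cell barcodes, 94 occurred in more than 1 pool, among them those of 11 members, and none occurred in 2 tumors of a pool. A tumor's own oligonucleotides held 96.3% to 99.2% of its members' multiplexing UMIs.

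The members carried the markers of their label. After thinning every cell to 2500 UMIs, Apoe, which carries cholesterol, was detected in 97.8% of members and Cx3cr1, the fractalkine receptor, in 76.8%. In T-gate cells, which should lack Apoe, these shares were 19.2% and 2.23%. The shares pool the cells of all tumors, and T-gate cells came in large part from V1c, V2a and V2c, which held 13, 15 and 18 members. How much free RNA the members' own droplets held was therefore not tested. The median depth before thinning was 6254 UMIs per member and 4097 per T-gate cell. Without thinning, the Apoe shares were 98.5% and 28.4%. The members held a median of 77 C1q UMIs, with a 5th percentile of 17 and a 95th percentile of 194, so most lay far from the minimum of 5.

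At the edge of the rule the cells looked different. The 31 members with 5 to 9 C1q UMIs held Apoe at 9077 CPM (counts per 1000000 gene UMIs), and the 28 cells just outside, with 2 to 4, at 11378 CPM. The other 1232 members held it at 32405 CPM. Ccr2, a receptor of recruited monocytes, ran the other way at 318 CPM just inside, 807 just outside and 158 in the rest. Csn3, a milk casein of the epithelium, was at 2476, 1449 and 529 CPM in the same order.

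The 3 chain genes of C1q lie side by side on the minus strand of chromosome 4 (GRCm38, GENCODE), within 18675 bases. C1qb spans chr4:136880129-136886187, C1qc chr4:136889804-136893065 and C1qa chr4:136895917-136898803, all protein coding. Since C1q defines the cells, the 250 bases upstream of the RefSeq (GRCm38.p6) starts of C1qb and C1qc are shown, 5′ to 3′ on the gene's strand. These windows are chr4:136886201-136886450 and chr4:136892915-136893164. RefSeq and GENCODE place the starts differently, and part of the C1qc window lies within the GENCODE span of C1qc. Capitals mark GAGGAA, the core of sites for PU.1, the master regulator of myeloid cells, on either strand.
C1qb: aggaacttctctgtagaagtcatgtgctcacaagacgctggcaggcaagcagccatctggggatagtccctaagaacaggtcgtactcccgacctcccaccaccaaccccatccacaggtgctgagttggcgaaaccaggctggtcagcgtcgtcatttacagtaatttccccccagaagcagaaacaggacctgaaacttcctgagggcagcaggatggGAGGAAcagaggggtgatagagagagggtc
C1qc: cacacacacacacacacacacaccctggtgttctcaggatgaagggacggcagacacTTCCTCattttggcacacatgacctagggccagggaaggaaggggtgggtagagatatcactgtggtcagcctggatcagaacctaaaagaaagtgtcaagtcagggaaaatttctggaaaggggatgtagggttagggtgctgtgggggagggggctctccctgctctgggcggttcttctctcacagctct
Each window holds the motif once. Of the 32851 mouse promoter windows of this length 23.3% hold it at least once, so its presence is a description only. Neither window holds ACGTG or GCGTG, the cores of hypoxia response elements, or TGANTCA, the AP-1 motif, on either strand.

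The leading genes were taken as those with the highest mean log2 ratio of the members to all other kept cells of the same tumor, over 12 tumors and with 5 added to each CPM value. Outside the rule genes they were Apoe, Cx3cr1, Ctss, Aif1, Trem2, Cd74, Ccl4, Gatm, Lgmn and Ccl3. Apoe led with a mean log2 ratio of 6.34 (5.12 to 7.43 over tumors), from a median of 32186 CPM in members and 412 CPM in the rest. Cx3cr1 followed at 5.74 (4.67 to 6.35). Ctss and Lgmn, lysosomal proteases, were at 5.68 and 5.28, Trem2, a lipid-sensing receptor, at 5.35, and Cd74, the MHC class II invariant chain, at 5.31. Tmem119, known best from microglia, was also among the leading genes, at 4.90. The members thus joined lysosomal, lipid and antigen-presentation genes, and none of these values is a test, since the cells were chosen by genes that travel with them.

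A second group of myeloid cells in the same tumors served as the nearest comparison. These 342 C1q-low myeloid cells held at most 1 C1q UMI, at least 1 UMI of Csf1r, Ms4a7 or Mpeg1 and at least 3 of Tyrobp and Fcer1g. After thinning, Trem2 was detected in 69.2% of members and 17.0% of C1q-low cells, Axl, an uptake receptor, in 39.4% and 8.48%, and Mertk, its relative, in 12.8% and 2.63%. Genes of monocytes ran the opposite way. Ccr2 was detected in 20.3% of members and 47.7% of C1q-low cells, Fn1 (fibronectin) in 21.9% and 48.2%, and Ly6c2 in 0.158% and 16.4%. Ly6c2 was also found in 11.3% of T-gate cells, which can express it.

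Several genes often used to name macrophage types were rare among the members. Mrc1 (CD206) was found in 16.6% after thinning, Folr2 in 5.78%, Arg1 in 1.66%, Cd163 in 1.19%, Lyve1 in 0.713% and Nos2 in 0.317%. Spp1 (osteopontin) was found in 64.1% of members, beside 50.9% of C1q-low cells, 49.5% of T-gate cells and 57.8% of epithelial-gate cells (at least 10 UMIs of Krt8 and Krt18). Its mean level over tumors was 1172 CPM in members, 830 CPM in T-gate cells and 10856 CPM in epithelial-gate cells. Csn3 was found in 59.1% of members and 62.5% of T-gate cells, which came in large part from other tumors than the members.

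**Figure D1:**
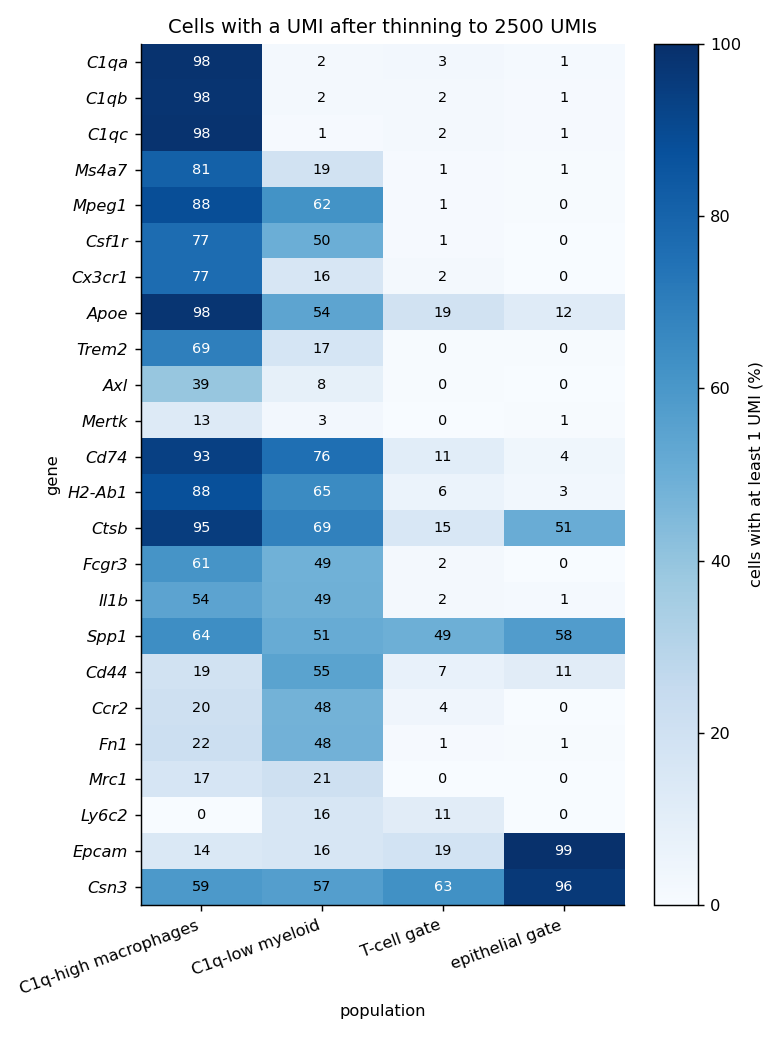
Share of cells (%) with at least 1 UMI of each gene (rows) after thinning every cell to 2500 UMIs, in 4 populations (columns); numbers in the boxes are rounded percents. Trem2, Cx3cr1 and Axl were detected most often in C1q-high macrophages, Ccr2, Fn1 and Cd44 in C1q-low myeloid cells, while Spp1 was found in 49.5% to 64.1% of all 4.

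Within the members, 9 sub-clusters were found on 2000 variable genes. They are a description of how the cells varied, since the same genes made and describe them, and their sizes were not compared between treatments. Fold values are ratios to the other members, on UMIs per 10000 with 0.2 added.

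Sub-clusters 1 (298 cells) and 5 (136 cells) were led by early response and inflammatory genes. Egr1, an immediate early factor, was 3.1-fold and Il1b, the cytokine interleukin-1β, 2.90-fold in sub-cluster 1. In sub-cluster 5, Cxcl2, a neutrophil chemokine, was 2.53-fold and Il1b 2.29-fold. Of the cells of sub-cluster 5, 2 came from isotype pool 1, against 189 of those of sub-cluster 1, so the libraries held them unevenly.

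Sub-cluster 2 (204 cells) was led by Adam8 (4.75-fold), Mt2 (3.89-fold), Hilpda (3.84-fold), Mmp12 (3.61-fold), Vegfa (3.13-fold) and Bnip3 (2.99-fold). Hilpda, Vegfa, Bnip3 and Slc2a1 (2.75-fold) are known targets of hypoxia-inducible factors. Vegfa was at 1.64 UMIs per 10000 there, 1.47 in sub-cluster 8, 1.25 in sub-cluster 7 and 0.43 in sub-cluster 1. Spp1 was at 22.1 there, 36.6 in sub-cluster 8, 20.9 in sub-cluster 7, 4.78 in sub-cluster 1 and 1.19 in sub-cluster 9, its lowest.

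Sub-cluster 3 (178 cells) differed least, with Apoe 1.52-fold and Cd74 1.46-fold. Sub-cluster 4 (149 cells) was led by Vcam1 (3.76-fold), the lysosomal protease Ctsd (3.14-fold), Mertk (3.08-fold) and the iron exporter Slc40a1 (2.63-fold). It had the highest Cx3cr1 and Trem2 of the 9, at 14.5 and 8.47 UMIs per 10000.

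Sub-cluster 6 (106 cells) was led by mitotic genes, with Top2a 26.1-fold and Mki67 21.4-fold, Mki67 being detected in 91.5% of its cells and 7.78% of the others. Sub-cluster 7 (87 cells) was led by interferon-stimulated genes, with Rsad2 43.1-fold, Isg15 20.1-fold and Irf7 12.3-fold. It had cells from 11 of the 15 tumors, and 31.0% of its cells came from 1 tumor.

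Sub-cluster 9 (43 cells, from all 15 tumors) was led by Retnla (126-fold), Lyz1 (62.0-fold), Ccl6 (49.7-fold), F13a1 (31.0-fold) and Mrc1 (17.1-fold). Its Mrc1 level was 19.5 UMIs per 10000, against 0.29 to 2.74 in the other sub-clusters, and it also had the highest Folr2 (4.38), Pf4 (12.5), Fn1 (38.9) and Ccr2 (11.4). Cx3cr1 was lowest there, at 0.61. Genes rare among the members as a whole, such as Mrc1 and Folr2, were thus at their highest in 3.40% of them.

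Sub-cluster 8 (62 cells) went against the label. It was led by the epithelial genes Igfbp5 (39.6-fold), Csn3 (23.8-fold) and Epcam (16.0-fold), held a median of 18 C1q UMIs and 3388.5 UMIs per cell, and 58 of its cells came from isotype pool 1. Epcam was detected in 88.7% of its cells and 22.1% of the others. Results that follow are given with these 62 cells, and without them where that changes a call.

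**Figure D2:**
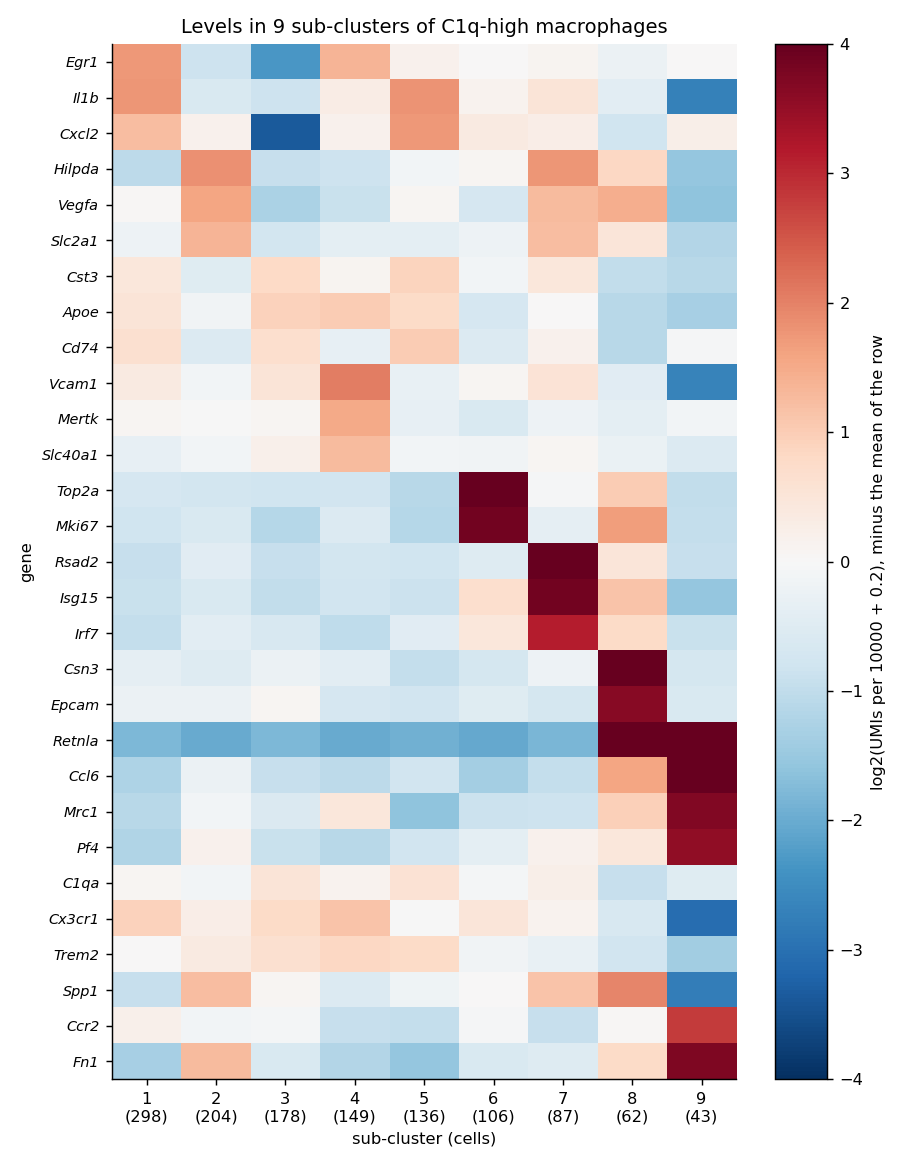
Levels of 29 genes (rows) in the 9 sub-clusters (columns, cells in brackets), as log2 of UMIs per 10000 plus 0.2 minus the mean of the row. Mitotic genes stand out in sub-cluster 6, interferon-stimulated genes in 7, Csn3 and Epcam in 8, and Mrc1, Pf4, Fn1 and Ccr2 in 9.

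The share of members among kept cells was compared to ask whether anti-VEGF-A treatment went with more or fewer of these macrophages. The mean share was 7.69% ± 3.53 (SD, n = 6) with isotype and 4.85% ± 2.48 (n = 9) with B20-4.1.1. Isotype tumors ran from 3.61% through a median of 7.94% to 11.2%, and B20-4.1.1 tumors from 1.14% through 5.45% to 7.85%. The difference of -2.84 percentage points did not pass a two-sided exact permutation test over every split of the 15 tumors (p = 0.0895), nor with pools as replicates (p = 0.4, where 0.1 is the smallest p that 2 and 3 pools allow). It rested on isotype pool 1, whose 3 tumors lay between 10.6% and 11.2%. Without that pool the difference was 0.34 points (p = 0.8), and without isotype pool 2 it was -6.02 points (exact permutation p = 0.00455, the smallest possible for this design). The 3 lowest B20-4.1.1 values were those of the T-cell-rich tumors, and over kept cells outside the T-cell gate the difference was -1.65 points (exact permutation p = 0.267). In isotype pool 1, 1461 of 3273, 2029 of 4215 and 1636 of 3538 deposited cells were kept. In isotype pool 2 these were 1885 of 2386, 1278 of 1703 and 2341 of 2993. Over all deposited cells the mean shares were 4.26% with isotype and 3.70% with B20-4.1.1. That difference was -0.56 points (exact permutation p = 0.548). Without sub-cluster 8 the difference over kept cells was -2.26 points (exact permutation p = 0.130).

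**Figure D3:**
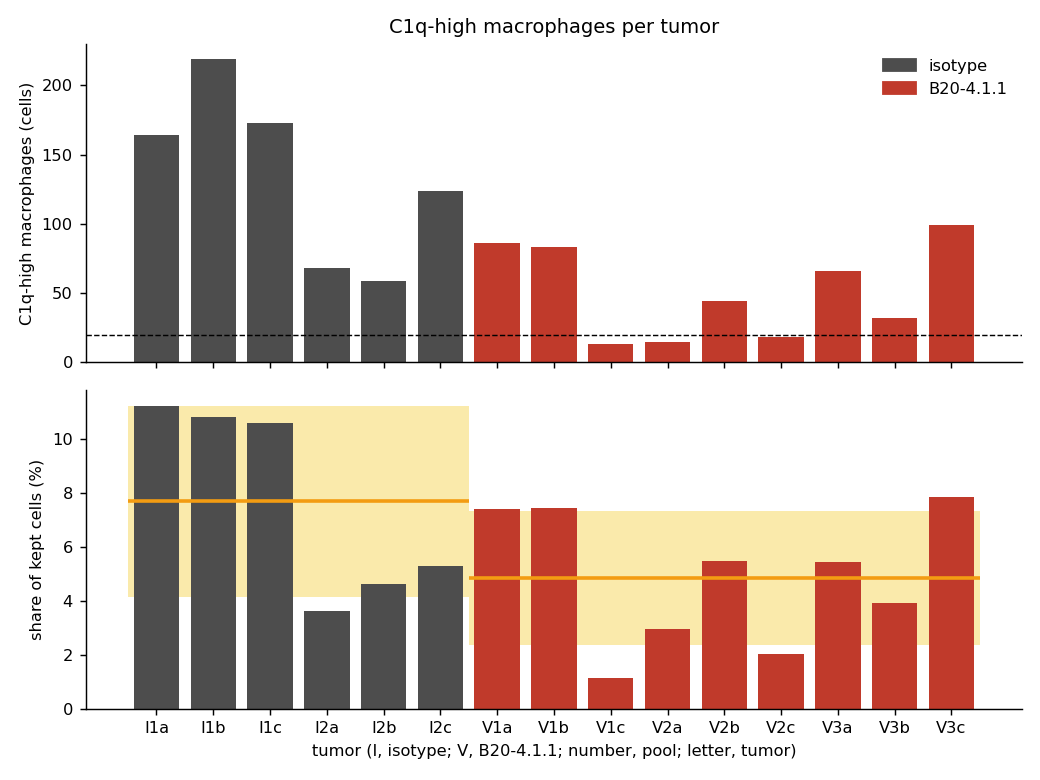
Number of C1q-high macrophages per tumor (top, dashed line at the 20 cells needed for gene tests) and their share of kept cells in percent (bottom, orange line the group mean, yellow band ± 1 SD). The tumors of isotype pool 1 lie between 10.6% and 11.2%, above every B20-4.1.1 tumor, and those of isotype pool 2 between 3.61% and 5.30%.

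Genes were then compared between treatments within the members, on counts summed per tumor (6 isotype and 6 B20-4.1.1 tumors). Of 6346 genes tested with edgeR's quasi-likelihood test, 3 (0.0473%) had an adjusted p under 0.05: Il1rn, BC028528 and Napsa, all of which rose under B20-4.1.1. None fell. At an unadjusted p under 0.05 there were 737 genes (11.6%), 345 (5.44%) higher and 392 (6.18%) lower, and DESeq2 called 19 of 5238 genes (0.363%), 16 of them higher. In 34 genes (0.536%) the groups did not overlap, 16 (0.252%) with every B20-4.1.1 tumor above and 18 (0.284%) with every one below. Tumors of a pool shared a library, so these p-values treat as independent what is partly shared and are too small. With pools as a random effect in voom (correlation within pools 0.286), no gene passed, and 375 had an unadjusted p under 0.05. In the epithelial-gate cells of the same tumors, which were more numerous, 870 of 11672 genes (7.45%) passed the edgeR test.

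Il1rn encodes the interleukin-1 receptor antagonist, a secreted protein that blocks interleukin-1 signaling. Its level was 30.6 CPM in the lowest isotype tumor, 51.8 at the median and 70.3 in the highest. In B20-4.1.1 tumors it was 69.6, 130.3 and 179 CPM, so that 5 of 6 lay above every isotype tumor. The log2 fold change was 1.30 (SE 0.20; edgeR adjusted p = 0.00958). Of the tumors left out of the fit, V2a was low at 21.0 CPM on 3 UMIs, and V1c and V2c were at 96.0 and 130.3 CPM. Few members held an Il1rn UMI. It was detected in 10.0% of members, 23.7% of C1q-low myeloid cells and 0.402% of T-gate cells after thinning. Among the sub-clusters it was highest in 9, 7 and 2, at 1.71, 1.59 and 1.51 UMIs per 10000, and between 0.21 and 0.65 in the other 6. In the epithelial-gate cells of the same tumors its log2 fold change was 0.04.

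BC028528, a protein-coding gene named after its cDNA clone, was at 36.7, 51.0 and 63.5 CPM in isotype tumors and 91.7, 99.9 and 135 CPM in B20-4.1.1 tumors. The groups did not overlap, and the log2 fold change was 1.03 (SE 0.15; edgeR adjusted p = 0.00958). V1c and V2a, outside the fit on 5 and 9 UMIs, lay within or next to the isotype range, and V2c was at 113 CPM. The sub-clusters held it more evenly, from 0.20 UMIs per 10000 in sub-cluster 8 to 1.06 in sub-cluster 5.

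Napsa encodes napsin A, an aspartic protease of lysosomes. It was at 26.9, 38.4 and 53.3 CPM in isotype tumors and 64.6, 81.9 and 122 CPM in B20-4.1.1 tumors, again without overlap. The log2 fold change was 1.15 (SE 0.21; edgeR adjusted p = 0.0410). Of the tumors outside the fit, V2a lay within the isotype range on 5 UMIs, and V2c and V1c were at 62.3 and 120.0 CPM. Members held less of it than C1q-low myeloid cells, with detection in 11.6% and 39.2% of cells after thinning. T-gate cells showed it in 7.42%, and its mean level over tumors was 54.2 CPM there and 64.9 CPM in members, so the members' Napsa lay close to that of another cell type.

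Without sub-cluster 8, 4 genes passed, the same 3 and Igfbp5, an epithelial gene here, which was lower. With a stricter gate (at least 10 C1q UMIs and no Krt8 or Krt18 UMI) 2 genes passed, BC028528 and Igfbp5, while Il1rn and Napsa had edgeR adjusted p-values of 0.164 and 0.187. The calls depended on single pools. No gene passed without isotype pool 1 (312 at an unadjusted p under 0.05) or without B20-4.1.1 pool 3 (664), and 734 passed without isotype pool 2 (432 higher), among them all 3. Without B20-4.1.1 pool 1 Il1rn and Napsa passed, and without B20-4.1.1 pool 2 Il1rn and BC028528. Over the 5 fits with a pool left out, the log2 fold changes of the 3 genes lay between 0.80 and 1.53, and every fit tried kept them above 0.

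The 3 genes lie on different chromosomes, Il1rn at chr2:24336853-24351494 (plus strand), BC028528 at chr3:95883954-95892005 (minus) and Napsa at chr7:44572380-44586862 (plus). As genes that rose together, Il1rn and BC028528 are shown with the 250 bases upstream of their most upstream RefSeq start (GRCm38.p6), at chr2:24336610-24336859 and chr3:95892063-95892312, with the same motifs in capitals. The end of the Il1rn window lies within the GENCODE span of Il1rn.
Il1rn: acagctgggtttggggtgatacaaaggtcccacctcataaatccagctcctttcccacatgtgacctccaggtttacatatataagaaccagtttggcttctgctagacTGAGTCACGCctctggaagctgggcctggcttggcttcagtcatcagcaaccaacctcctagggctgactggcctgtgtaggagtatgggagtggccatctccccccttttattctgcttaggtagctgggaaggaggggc
BC028528: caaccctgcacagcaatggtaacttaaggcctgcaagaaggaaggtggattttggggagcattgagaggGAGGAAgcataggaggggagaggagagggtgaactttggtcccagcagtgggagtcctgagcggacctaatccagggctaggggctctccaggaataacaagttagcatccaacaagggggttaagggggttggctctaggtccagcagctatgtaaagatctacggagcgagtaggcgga
The Il1rn window holds TGANTCA once, overlapping 1 match to GCGTG on the opposite strand. Of all windows, 6.75% hold TGANTCA and 28.2% hold GCGTG at least once. The BC028528 window holds GAGGAA once and neither hypoxia core, and ACGTG, which 16.6% of all windows hold, is in none of the 4 windows shown.

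**Figure D4:**
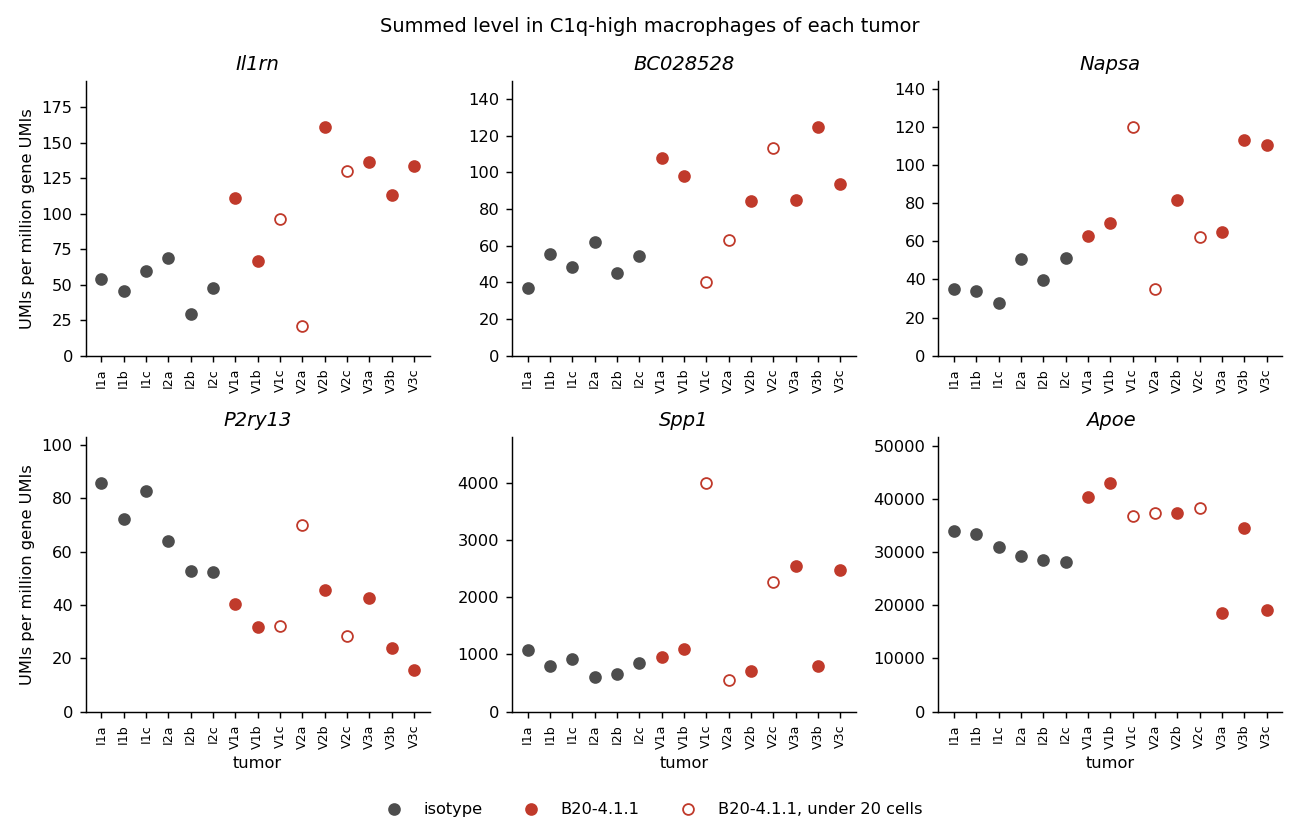
CPM of total gene UMIs in the summed C1q-high macrophages of each tumor for 6 genes; open circles are the 3 tumors under 20 cells, which were not in the fit. Filled B20-4.1.1 points lie above all isotype points for BC028528 and Napsa, and 1 filled B20-4.1.1 tumor falls within the isotype range for Il1rn.

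The remaining genes are given by role. None of them passed the adjusted test, so their values are levels and fold changes, read against the 5.44% of genes higher and 6.18% lower at an unadjusted p under 0.05 and the 49.6% of genes with a log2 fold change above 0. Over all genes the median log2 fold change was -0.0022 and 90% of genes lay between -0.50 and 0.44. The lists were chosen with earlier results of these data known.

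Cytokine and chemokine genes had medians close to that of all genes. Of 7 cytokine genes tested, Il1rn among them, 4 had a positive log2 fold change (median 0.02, and 0.55 without isotype pool 1), and of 12 chemokine genes 6 did (median 0.01). Il1b was at 490, 933 and 1019 CPM in isotype tumors (lowest, median and highest) and 258, 1074 and 2470 CPM in B20-4.1.1 tumors, and its wide spread left a log2 fold change of 0.54 with an SE of 0.33. Tnf, an inflammatory cytokine, had a log2 fold change of -0.31 (SE 0.22) and Tgfb1, an immune-suppressing one, -0.07 (SE 0.15). Ccl2, which recruits monocytes, was at 0.33 (SE 0.23). Il10, Cxcl9, Ccl8 and Cd274 (PD-L1) were too low to test, with 20, 151, 139 and 82 UMIs in all over the 12 tumors.

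Genes of the response to low oxygen had mostly higher values under B20-4.1.1. Of 33 tested, 27 had a positive log2 fold change and 18 an unadjusted p under 0.05, all of these 18 higher. The median was 0.45, beside 0.44 for 32 genes of the list in the epithelial-gate cells of the same tumors. Hilpda, a lipid droplet protein, was at 11.1, 24.0 and 77.1 CPM in isotype and 24.0, 101 and 353 CPM in B20-4.1.1 tumors (log2 fold change 1.68, SE 0.56). Bnip3, a mitophagy receptor, had a log2 fold change of 1.12 (SE 0.32), Ankrd37 1.06 (SE 0.26), the lactate transporter Slc16a3 0.75 (SE 0.21), the glucose transporter Slc2a1 0.65 (SE 0.26) and lactate dehydrogenase Ldha 0.62 (SE 0.19). Vegfa was at 8.35, 55.0 and 77.4 CPM in isotype and 33.1, 81.3 and 115 CPM in B20-4.1.1 tumors, with 0.58 (SE 0.31), and Hif1a at 0.35 (SE 0.16). Without B20-4.1.1 pool 3 the median of the list was 0.12. Its edgeR adjusted p-values were 0.172 or more.

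Interferon-stimulated genes had a median log2 fold change of 0.62, with 14 of 15 positive and 5 at an unadjusted p under 0.05. Irf7, a regulator of interferon production, was at 15.9, 26.4 and 45.8 CPM in isotype and 12.8, 79.5 and 265 CPM in B20-4.1.1 tumors (log2 fold change 1.87, SE 0.41; edgeR adjusted p = 0.134). The lowest B20-4.1.1 tumor lay below every isotype tumor, and the highest was V3c. Isg15, a ubiquitin-like effector, was at 1.18 (SE 0.41), and Bst2, which tethers virus particles, at 0.87 (SE 0.26). The median of the list was 0.01 without B20-4.1.1 pool 3. In epithelial-gate cells it was 1.12 over 14 genes.

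Receptors for antibody and antigen-presentation genes also lay above 0. All 6 Fc receptor genes tested had positive log2 fold changes (median 0.43), 4 at an unadjusted p under 0.05. Fcgr2b, the inhibitory Fc receptor, was at 261, 313 and 370 CPM in isotype and 367, 449 and 561 CPM in B20-4.1.1 tumors, overlapping at 1 pair of values (0.54, SE 0.13; edgeR adjusted p = 0.189; DESeq2 called it). Fcgr3, an activating one, was at 0.14 (SE 0.13). All 10 MHC class I pathway genes tested were positive (median 0.34, 5 at an unadjusted p under 0.05, among them Tap2, the peptide transporter, at 0.69 with SE 0.22).

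MHC class II genes were positive in 7 of 8 (median 0.37), with no gene at an unadjusted p under 0.05. Their spread between B20-4.1.1 tumors was wide. H2-Ab1 ran from 2637 through 7546 to 11317 CPM there and from 4998 through 5530 to 6216 CPM in isotype tumors (log2 fold change 0.35, SE 0.23). Cd74 behaved alike (0.44, SE 0.22), while Ciita, the master regulator of these genes, was at -0.37 (SE 0.26).

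Complement genes outside the rule were positive in 7 of 8 (median 0.22, highest 0.73). Only the C5a receptor C5ar1, at 0.58 (SE 0.15), had an unadjusted p under 0.05. The rule genes C1qa, C1qb and C1qc are given as a description. C1qa was at 4267, 5135 and 5708 CPM in isotype and 5251, 6440 and 7028 CPM in B20-4.1.1 tumors, with log2 fold changes of 0.29, 0.26 and 0.23 for the 3 chains.

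Lipid, lysosomal and uptake genes, the core of the members' profile, had medians close to 0. Medians were 0.09 over 13 lipid genes, 0.07 over 18 lysosomal genes and -0.08 over 13 scavenging genes. Of the lipid genes 11 were positive, and 3 were higher at an unadjusted p under 0.05 (Npc2, Plin2 and Cd36). Of the lysosomal genes 13 were positive and 2 were higher at that limit. Of the scavenging genes 5 were positive, with 1 higher and 2 lower at that limit. Apoe was at 29327, 30186 and 33808 CPM in isotype and 19959, 39343 and 45128 CPM in B20-4.1.1 tumors, the 2 lowest of these being V3a and V3c, and its log2 fold change was 0.14 (SE 0.19). Trem2 was at 0.07 (SE 0.16), Ctsb, a lysosomal protease, at 0.11 (SE 0.15), Mertk at -0.08 (SE 0.24), Gas6, its ligand, at -0.0050 (SE 0.21) and Axl at -0.37 (SE 0.17). Cd36, a fatty acid transporter, was at 1.51 (SE 0.57) on low levels, with a median of 11.1 CPM in isotype tumors. Npc2, which moves cholesterol out of lysosomes, was at 0.44 (SE 0.12; edgeR adjusted p = 0.209) and was called by DESeq2.

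Genes known from microglia had the lowest median of the 27 functional lists, -0.18, with 4 of 12 positive and 4 lower at an unadjusted p under 0.05 (Siglech, P2ry13, P2ry12 and Gpr34). P2ry13, a nucleotide receptor, was at 54.5, 68.5 and 85.6 CPM in isotype and 16.2, 37.2 and 50.7 CPM in B20-4.1.1 tumors, without overlap (-0.996, SE 0.22; edgeR adjusted p = 0.134). Of the tumors outside the fit, V2a lay within the isotype range at 70.0 CPM on 10 UMIs, and V1c and V2c were at 32.0 and 28.3 CPM. Siglech, a sialic acid receptor also made by plasmacytoid dendritic cells, was at -1.54 (SE 0.33; edgeR adjusted p = 0.134), resting on 236 isotype and 38 B20-4.1.1 UMIs. Both were called by DESeq2. Cx3cr1 was at -0.10 (SE 0.14). Without isotype pool 1 the median was -0.01.

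Among 15 transcription factors tested, 6 were positive (median -0.15). The median was 0.16 without isotype pool 1, 0.013 without B20-4.1.1 pool 3 and -0.26 without isotype pool 2. Maf, a factor of resident macrophages, was at 153, 330.0 and 369 CPM in isotype and 118, 181 and 238 CPM in B20-4.1.1 tumors (-0.74, SE 0.20; edgeR adjusted p = 0.197). Of the tumors outside the fit, V2a was at 595 CPM on 85 UMIs, above every isotype tumor. V1c and V2c were at 264 and 108 CPM. Cebpb was at 0.58 (SE 0.18) and Spi1, which encodes PU.1, at 0.36 (SE 0.13). The heat shock genes Hspa1b and Hspa1a, in the list of early response and stress genes, were at -1.24 (SE 0.35) and -1.13 (SE 0.39), with 8 of that list's 16 genes positive and a median from -0.35 to 0.32 over the fits with a pool left out.

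Markers of monocytes, of resident macrophages and of polarization gave no clear order. Medians were 0.23 over 5 monocyte genes, -0.01 over 8 resident-macrophage genes, 0.12 over 8 M1-associated and 0.15 over 7 M2-associated genes, with no M1-, M2- or monocyte-list gene at an unadjusted p under 0.05. The monocyte median was -0.40 without isotype pool 1 and 1.57 without isotype pool 2, and without B20-4.1.1 pool 3 the M2-associated and resident-macrophage medians were -0.31 and -0.47. Fn1 ran from 98.6 through 253 to 1490 CPM in isotype and from 312 through 569 to 1195 CPM in B20-4.1.1 tumors (0.30, SE 0.50). It changed sign with the pool left out, at -0.40 without isotype pool 1 and 1.59 without isotype pool 2, and the latter passed the adjusted test. Mrc1 was at -0.54 (SE 0.37), Folr2 at -0.02 (SE 0.48), Pf4 at 0.58 (SE 0.45) and Ccr2 at -0.27 (SE 0.28). With tumors of at least 10 members, Mrc1 was at -0.08 (SE 0.41). Cd163, Ly6c2 and Arg1 were too low to test.

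Spp1 was at 628, 840 and 1064 CPM in isotype and 790, 1061 and 2755 CPM in B20-4.1.1 tumors, with V3a and V3c well above the other tumors of the fit. Of the tumors outside the fit, V1c and V2c were at 4002 and 2267 CPM on 500 and 400 UMIs, and V2a was at 553 CPM. The log2 fold change of Spp1 was 0.88 (SE 0.28; edgeR adjusted p = 0.241), and 0.87 in the epithelial-gate cells, whose level was far higher. Without B20-4.1.1 pool 3 it was 0.24, and with no filter on low counts it passed (edgeR adjusted p = 0.0204). Cd44, its receptor, was at 0.19 (SE 0.23). The part of free Spp1 RNA from epithelial cells was not tested.

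The remaining lists had medians between -0.015 and 0.35. They were 0.28 over 12 angiogenesis and matrix genes (Plaur, the urokinase receptor, at 0.51 with SE 0.19), 0.35 over 5 oxygen-sensing genes, 0.05 over 10 checkpoint ligands, 0.06 over 5 iron genes, 0.0047 over 15 chemokine and cytokine receptors, -0.015 over 2 costimulation genes and -0.0026 over 8 genes of the osteopontin axis. Lgals3 (galectin-3) was at 0.61 (SE 0.19) and Fth1, the ferritin heavy chain, at 0.49 (SE 0.15), while Lilrb4a, an inhibitory receptor, was at -0.45 (SE 0.16).

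Among proliferation genes, 5 of 14 were positive (median -0.13), and Mki67 was at 61.3, 120 and 212 CPM in isotype and 10.7, 42.6 and 227 CPM in B20-4.1.1 tumors (-0.57, SE 0.47). The median of the list was -0.56 without B20-4.1.1 pool 3 and 0.14 without B20-4.1.1 pool 1, and Mki67 was at -2.10 and -0.14 in these fits. Respiratory chain genes had 13 of 16 positive (median 0.11). Their median was -0.16 without isotype pool 1 and 0.45 without isotype pool 2.

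Markers of other cell types were low in the members, except those of the epithelium. The summed level of 14 epithelial genes, 1 of them at 0 in all 15 tumors, ran from 918 to 2672 CPM in isotype and from 739 to 2657 CPM in B20-4.1.1 tumors. The 9 T-cell genes summed to 89.7 to 175 CPM and 101 to 418 CPM, of which Il7r, a gene that macrophages can also express, was at 99.9 and 151 CPM at the medians. The 7 B-cell genes summed to 88.9 to 130 and 83.5 to 152 CPM, 8 neutrophil genes to 36.2 to 167 and 16.0 to 73.1 CPM, and 9 dendritic-cell genes to 19.5 to 57.9 and 4.82 to 96.0 CPM. Endothelial, fibroblast, mural, erythroid and natural killer lists each summed to 20.4 CPM or less in every tumor of the fit. Their part in the differences above was not tested.

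**Figure D5:**
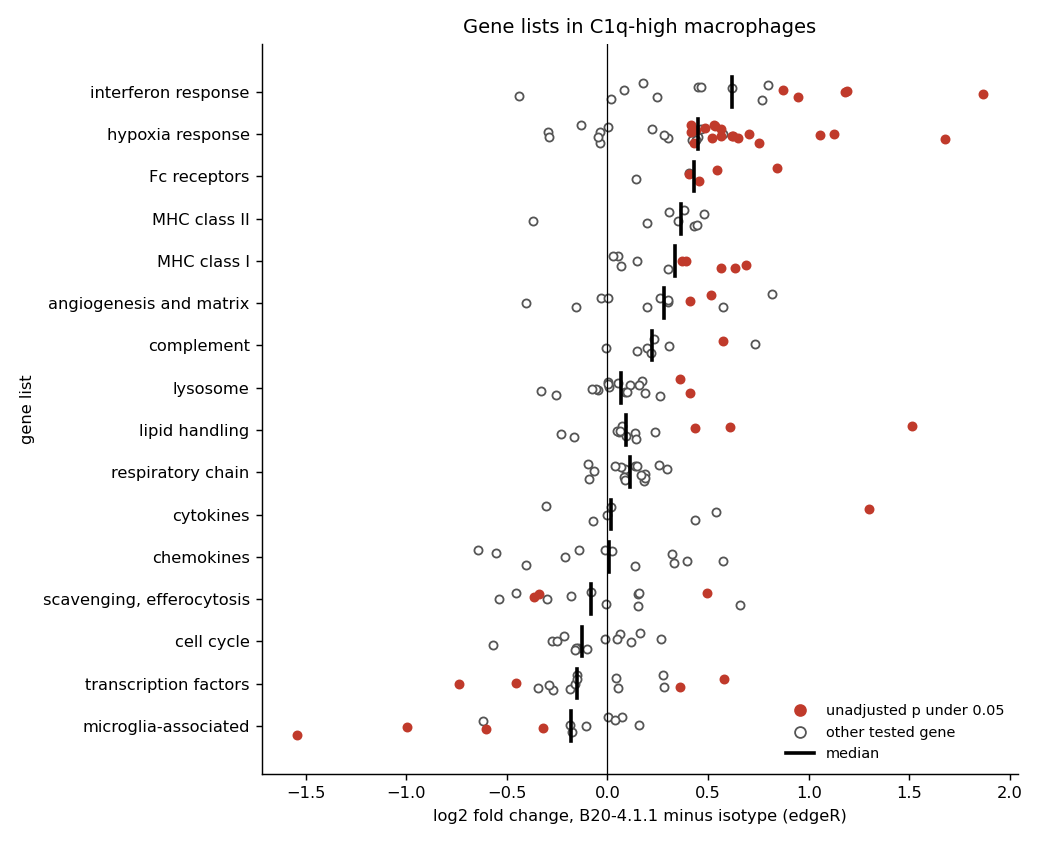
Log2 fold changes (B20-4.1.1 minus isotype, edgeR) of the tested genes of 16 lists in C1q-high macrophages; filled points have an unadjusted p under 0.05 and black bars are medians. Interferon and hypoxia genes lie furthest above 0 (medians 0.62 and 0.45) and genes known from microglia furthest below (-0.18).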

How the data were processed

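The authors aligned and counted reads with Cell Ranger (version 6.1.2 per the file headers) on mm10, and used the multiplexing oligonucleotides to split the pools. They deposited UMI counts for each tumor, over 31053 genes plus 12 multiplexing oligonucleotides. The submitters' processing notes also name bcl2fastq and Seurat 4.3.0. No normalization had been applied to the deposited counts, and all columns of the files were mapped (0 were not). The study's high- and low-hypoxia classes of B20-4.1.1 tumors are not in the labels and were not compared.

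From the deposited counts, cells were gated as the report describes. No doublet caller was run. Doublets were limited by the UMI maximum and by the Cd3, Krt8 and Krt18 limits, and 49 members held over 15000 UMIs. Members were clustered with scanpy 1.11.5 and leidenalg 0.10.2 (2000 variable genes, 12 principal components, 20 neighbors, resolution 0.65, the study's settings for macrophages where given). A leading gene of a sub-cluster was detected in at least 20% of its cells. Counts were summed per tumor, tumors with at least 20 members entered, and edgeR 4.0.16 (filterByExpr, TMM, quasi-likelihood F test, two-sided, no covariate) gave p-values with Benjamini-Hochberg adjustment at 0.05. CPM values are TMM-scaled for tumors in the fit and otherwise per total gene UMIs. C1q-low myeloid levels are means over 13 tumors. Shares were compared by exact two-sided permutation of tumors. The labels describe each tumor as coming from its own mouse.

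The members and gene lists were chosen with earlier results of these data known. Named genes were the called genes outside the rule with an average log2 CPM of at least 4 (up to 15 per direction) and a fixed list of 34 macrophage genes. Genes named beyond these (lowest p of a list, DESeq2 calls, leading genes) were chosen after their values were seen. Other-cell lists and functional lists came to 37. On simulated counts with the depth of the 12 tumors and 6346 genes, the test recovered 83% of genes changed 2-fold and 98% of those changed 4-fold, with 16 false calls. The simulated tumors were drawn independently, without a pool effect. These rates therefore do not cover data in which tumors of a pool are alike and pools follow the treatment. Alternatives were each pool left out in turn, a stricter gate (at least 10 C1q UMIs and no Krt8 or Krt18 UMI), at most 10% mitochondrial UMIs, thinning to 2500 UMIs, tumors with at least 10 members, sums per pool, DESeq2 1.42.0, no filter on low counts, voom with the pool as block (limma 3.58.1), and, added after seeing the data, no TMM, no epithelial-led sub-cluster and kept cells outside the T-cell gate as denominator. For the share of members, all deposited cells as the denominator was a further alternative. Detection shares are over the cells of all tumors together. Promoters (4 of 6 matched) and gene positions came from RefSeq (GRCm38.p6) and GENCODE vM21. R 4.3.3 and Python 3.11.15 were used.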

Additional observations from a re-analysis of the deposited data

Results flagged for a closer look

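Among 62 sets of 4 to 10 tumors checked for a single distant value, 3 were flagged, and chance flags about 1 in 20 such sets. Among the B20-4.1.1 tumors of the fit, Mrc1 was highest in V3c at 258 CPM, with the nearest at 136 CPM. V2a, outside the fit, was at 651 CPM on 93 UMIs, and the isotype tumors I2a and I2b were at 327 and 379 CPM. Among the isotype tumors, Folr2 was highest in I2a at 102 CPM, with the nearest at 44.5 CPM. In the same set Il1b was lowest in I2a at 490 CPM, with the nearest at 914 CPM. Mrc1 and Folr2 were highest, and Il1b lowest, in sub-cluster 9. Whether that sub-cluster had a part in the flagged values was not tested.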

How the results depend on the processing

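The difference in share was 0.34 percentage points without isotype pool 1 and between -6.02 and 0.34 over the 5 fits with a pool left out. With all pools in, every other setting tried gave a negative difference. It ran from -3.35 with at most 10% mitochondrial UMIs to -0.56 over all deposited cells. The count of 3 called genes ran from 0 to 734 with a pool left out. It was 0 after thinning, 0 with tumors of at least 10 members, 0 in sums per pool, 0 with pools as a random effect (at an unadjusted p under 0.05: 456, 670, 318 and 375), 2 with the stricter gate, 19 with DESeq2 and 92 with no filter on low counts. Il1rn and BC028528 each passed in 8 of the 15 other settings and Napsa in 6. The causes of these moves were not tested, and the pools cannot be told apart from the treatments. No paired analysis was possible because each pool holds 1 treatment and the numbers of the pools link no animals.

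Of the named genes outside the called 3, a call was gained by Axl (adjusted p = 0.0474), Ldha (0.0373) and Fn1 (0.0216) without isotype pool 2, and by Spp1 (0.0204) and Isg15 (0.0145) with no filter on low counts. The genes below changed sign in the settings given, none with an adjusted p under 0.05 where its sign had changed. With a pool left out, the ranges of log2 fold changes were -0.059 to 0.47 for Apoe, -0.078 to 0.25 for Trem2, -0.27 to 0.11 for Cx3cr1, -0.61 to 0.48 for Folr2, -0.48 to 0.37 for Mertk, -0.13 to 0.073 for Gas6, -0.66 to 0.21 for Ccr2, -0.40 to 1.59 for Fn1, -0.57 to 0.13 for Tnf, -0.19 to 0.10 for Tgfb1, -0.32 to 1.27 for Pf4 and -0.021 to 0.33 for Ctsb. Elsewhere the sign changed with tumors of at least 10 members for Folr2 (0.12), Mertk (0.057), Gas6 (0.19), Ccr2 (0.021) and Tgfb1 (0.085), in sums per pool for Gas6 (0.039) and Tgfb1 (0.041), after thinning for Ccr2 (0.029), and for Gas6 with DESeq2 (0.0052), no filter (0.00056) and the pool as block (0.075).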
